A study of Mus musculus with 4 samples.

Results

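The genes described are the variable segments of the αβ T cell receptor, taken as every gene of the deposited feature lists whose symbol starts with Trav (α chain) or Trbv (β chain). This rule gave 163 of 31053 genes, 128 of them Trav and 35 Trbv. Their transcripts were counted as unique molecular identifiers (UMIs, tags that mark single captured RNA molecules) by droplet single-cell RNA sequencing of mouse spleen. Cells had been sorted by flow cytometry as live CD45+ cells of low forward and side scatter, a gate for small leukocytes.

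Each of 4 libraries was 1 group of C57BL/6 mice, so groups had no replicates and no test between them was possible. Young WT mice were of an age that the sources used here do not give. Aged WT, miR-146a knockout (146ko) and double knockout mice were 15 months old, and the aged groups were pools of 3 to 6 mice. The WT genotype carried the floxed allele (miR155 fl/fl). The knockout of miR-146a was whole-body, and the double knockout added a T cell conditional deletion of miR-155, with a Cre driver that the sources used here do not give. A difference between libraries is therefore also a difference between single sets of animals. The deposited annotation named 8256 T cells of 24143 annotated cells, 2904 for the young WT, 1755 for the aged WT, 1514 for the miR-146a knockout and 2083 for the double knockout library. Their types were labelled Nai Cd4 (2823 cells), Mem Cd4 (2142), Nai Cd8 (1360), Mem Cd8 (1769) and Early Act Cd8 (162). The T cells of a library held between 3948064 and 7987151 UMIs, with a median per cell between 2143 and 2613. Between 13 and 18 T cell barcodes of each library also occurred in another library. The labels name both a 3' and a 5' chemistry, so the end of the transcript that was read is uncertain.

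A T cell assembles each receptor chain by joining 1 V segment to a J segment, upstream of a constant gene. The β chain also takes in a D segment. The choice of V segment sets part of the contact surface with the peptide and the MHC molecule, and it marks all descendants of a clone. Most T cells express a single β chain, whereas α genes can be rearranged on both chromosomes. In the C57BL/6 genome the Trav cluster contains long duplicated stretches, and the copies carry a d or an n in their names. Invariant NKT cells use Trav11 and recognise lipids on CD1d, and MAIT cells use Trav1 and recognise MR1.

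A read can be assigned to 1 V gene only where that gene differs from its copies. The sequences of 3 sets, which hold the most counted gene of each family and the invariant NKT segment, show how this varies. Each line is 90 bases of coding sequence from the GENCODE M21 transcripts (GRCm38, the same assembly as mm10), on the plus strand for every gene, 5′ to 3′. Capitals mark the positions at which the genes of that set differ. Trav3-3 (chr14:53666264-53666353, 77 UMIs in T cells) differs from Trav3d-3 (chr14:52972796-52972885) and Trav3n-3 (chr14:53283933-53284022), both with 0 UMIs, which are identical to each other here.
Trav3-3: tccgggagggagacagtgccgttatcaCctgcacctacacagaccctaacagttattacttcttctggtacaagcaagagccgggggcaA
Trav3d-3 and Trav3n-3: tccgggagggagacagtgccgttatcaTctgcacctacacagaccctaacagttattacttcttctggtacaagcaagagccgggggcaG
Trav11 (chr14:53519693-53519782, 15 UMIs) and Trav11d (chr14:52824747-52824836, 0 UMIs) share every base, and Trav11n (chr14:53135512-53135601, 6 UMIs), which is annotated as a pseudogene, differs.
Trav11 and Trav11d: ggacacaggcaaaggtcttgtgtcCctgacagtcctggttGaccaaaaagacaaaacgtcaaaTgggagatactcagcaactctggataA
Trav11n: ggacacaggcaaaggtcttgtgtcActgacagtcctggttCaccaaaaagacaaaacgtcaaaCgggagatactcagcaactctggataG
The β genes are more distinct, as Trbv12-2 (chr6:41119166-41119255, 68 UMIs) and Trbv12-1 (chr6:41113869-41113958, 6 UMIs) show.
Trbv12-2: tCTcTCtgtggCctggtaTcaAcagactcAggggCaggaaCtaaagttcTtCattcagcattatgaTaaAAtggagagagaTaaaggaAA
Trbv12-1: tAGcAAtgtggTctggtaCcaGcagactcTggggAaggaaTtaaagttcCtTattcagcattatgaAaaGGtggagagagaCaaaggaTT

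Over their aligned V exons the copies were closer still. Trav3-3 differed from Trav3d-3 at 4 of 276 bases (98.6% identity), and from Trav3n-3 at as many. Trav11 and Trav11d had 0 differences over 290 aligned bases, so reads that lie wholly within these bases cannot be divided between the genes. Trav11n differed from Trav11 at 6 of 290 bases (97.9%). Trbv12-2 differed from Trbv12-1 at 32 of 293 bases (89.1%).

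Of the 163 genes, 94 had at least 1 UMI in T cells, 75 of them Trav and 19 Trbv. These summed to 1474 UMIs, 1262 of Trav and 212 of Trbv, which is few for that many cells. Among the 69 genes at 0 in T cells, 65 were at 0 in all barcodes. How often each transcript could be told from others was measured as the percent of its 90-base windows that occur in no other annotated transcript. For 40 genes (39 Trav and Trbv8) this was 0%, and all 40 were at 0 UMIs. Of the 123 genes with any unique window, 94 had UMIs in T cells. A count of 0 for those 40 genes thus says nothing about whether T cells use them.

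**Figure D1:**
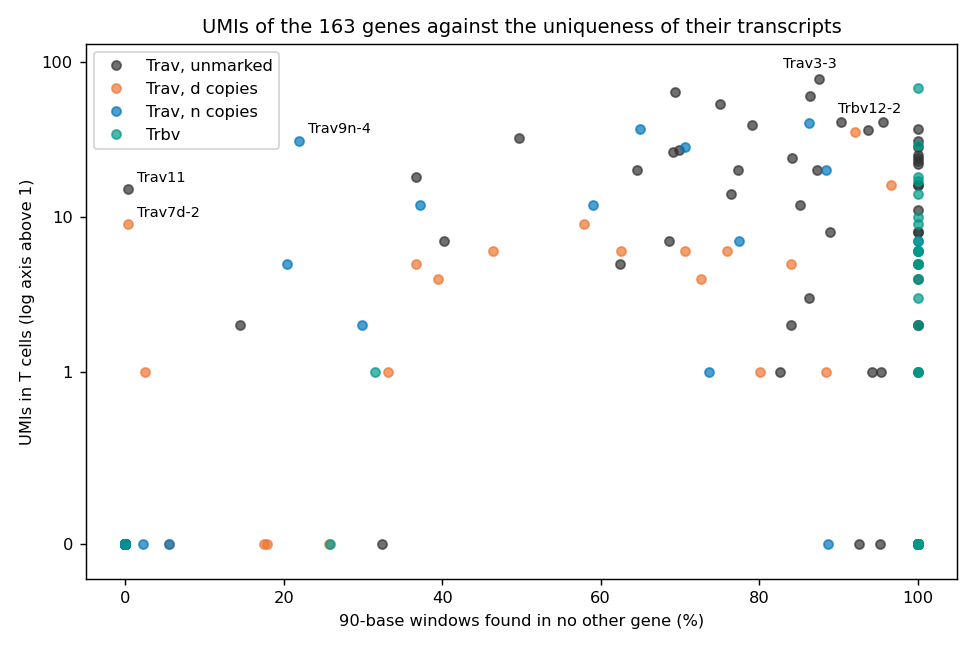
The 163 genes plotted by the percent of their 90-base windows found in no other gene (horizontal) and their UMIs in T cells, 4 libraries summed (vertical, log axis above 1). The 40 genes at 0% all lie at 0 UMIs, and Trav3-3 (77 UMIs) and Trbv12-2 (68 UMIs) are the highest of their families.

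The copies marked d supplied 115 of the Trav UMIs (9.11%) from 39 genes and those marked n supplied 208 (16.5%) from 34 genes. The 55 genes with neither mark supplied 939 (74.4%). Along chromosome 14 the first 42 genes, Trav1 to Trav13d-3, held 6.89% of Trav UMIs and the middle 42, Trav8d-2 to Trav6-3, held 22.0%. The last 44, Trav7-3 to Trav23, held 71.1%. This last stretch took 70.6% for the young WT, 70.3% for the aged WT, 73.4% for the miR-146a knockout and 71.1% for the double knockout, a span of about 3 percentage points. The median percent of unique windows was 4.04% in the first stretch, 10.0% in the middle and 87.5% in the last, so position and uniqueness moved together, and their separate parts in the count cannot be told apart.

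**Figure D2:**
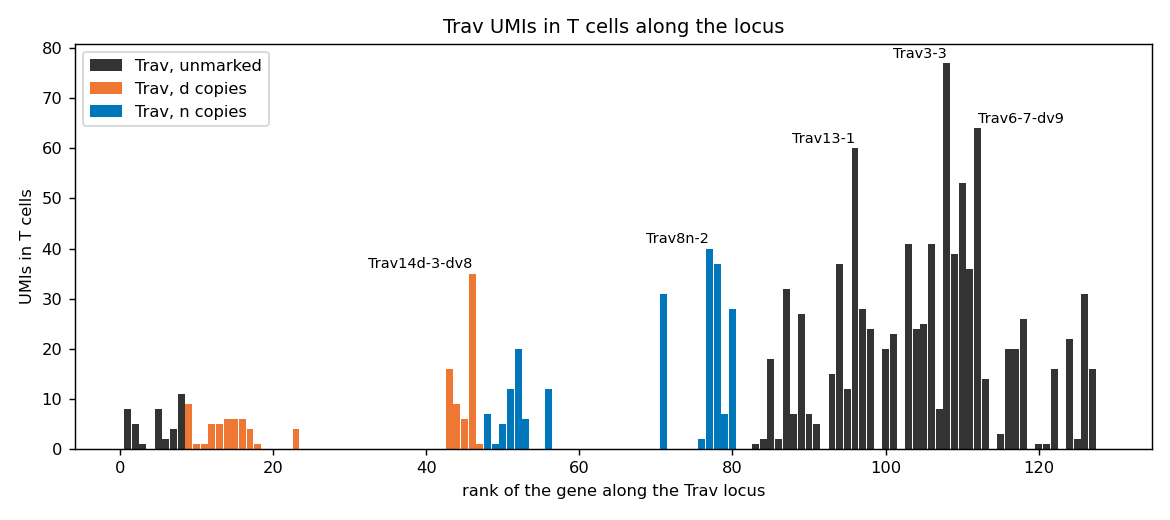
UMIs of each Trav gene in T cells (vertical) against its rank along the locus (horizontal), bars coloured by copy. The last 44 ranks hold 897 of the 1262 UMIs, and Trav8n-2 is a high n copy in the middle stretch with 40 UMIs.

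Low uniqueness did not always mean a count of 0. Trav11 had 0.394% unique windows and 15 UMIs, Trav7d-2 had 0.403% and 9 UMIs, and Trav9n-4 had 21.9% and 31 UMIs. Genes annotated as pseudogenes, which cannot encode a chain, numbered 33, and 9 of them summed to 32 UMIs. Trav22 supplied 16 of these, Trav11n 6, Trav8-2 3 and Trav20 2. Conversely, 10 functional genes with unique windows had no UMI in T cells: Trbv5, Trbv23, Trbv29, Trbv30, Trav15d-1-dv6d-1, Trav9d-4, Trav13d-3, Trav12n-3, Trav18 and Trav23.

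Among the β genes Trbv12-2 led in every library. It had 24 UMIs for the young WT, 15 for the aged WT, 16 for the miR-146a knockout and 13 for the double knockout library, each from a different cell. These were 33.3%, 31.3%, 37.2% and 26.5% of the Trbv UMIs, and 32.1% of the 212 in all (95% exact binomial interval 25.8% to 38.8%). Trbv2 was next with 8, 10, 7 and 4 UMIs in the same order, or 13.7% in all (9.36% to 19.1%). Its share was 11.1%, 20.8%, 16.3% and 8.16% by library, and these libraries' intervals overlap. These intervals and the others given cover counting error only, not the spread between animals.

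Trbv20 had 18 UMIs (7, 4, 3 and 4 by library), Trbv13-2 had 17 (5, 3, 4 and 5) and Trbv3 had 14 (4, 2, 3 and 5). The 5 genes named so far made up 68.9% of the Trbv UMIs. The remaining 14 detected β genes had between 1 and 10 UMIs. Trbv19 had 0 in the young WT against 3, 2 and 4 in the aged libraries, and all 3 UMIs of Trbv21 were young WT, counts too small to separate from sampling. Trbv31, which lies on the minus strand beyond the other segments, had 6 UMIs.

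**Figure D3:**
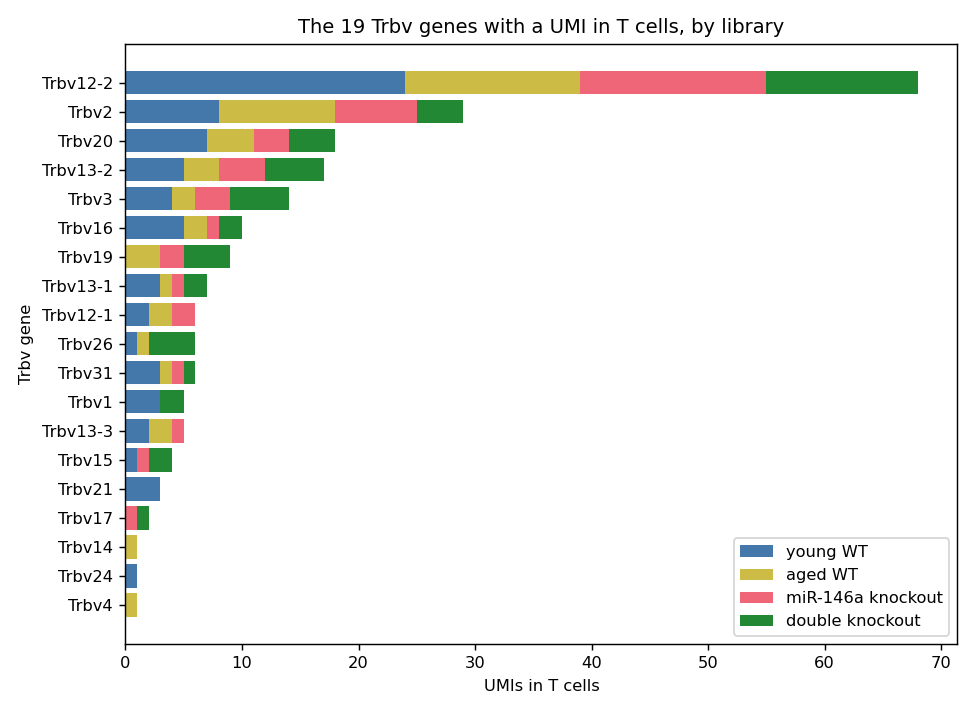
UMIs in T cells (horizontal) of the 19 detected Trbv genes (vertical), bars stacked by library. Trbv12-2 with 68 UMIs exceeds Trbv2 with 29, and every library contributes to both.

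The share of Trbv12-2 was 27.8% in Nai Cd4, 33.3% in Mem Cd4, 25.0% in Nai Cd8 and 48.3% in Mem Cd8 cells. The Mem Cd8 value rests on 14 of 29 UMIs (29.4% to 67.5%), and its interval includes the share in Mem Cd4 cells but not those in Nai Cd4 and Nai Cd8 cells, whose own intervals overlap it. Trbv2 had 15.3%, 12.5%, 16.7% and 6.90% in the same order.

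The α counts were spread over many more genes. The 12 most counted held 560 UMIs, 44.4% of the family, and the highest, Trav3-3, held 6.10%. Trav3-3 had 31, 12, 17 and 17 UMIs in the young WT, aged WT, miR-146a knockout and double knockout libraries, from 53 cells. Trav6-7-dv9 followed with 25, 12, 7 and 20 UMIs from 38 cells. It is 1 of 10 genes with dv in the name, which can also join to δ segments; 8 of those were detected, with 244 UMIs (19.3% of Trav). Trav13-1 had 19, 18, 9 and 14 UMIs from 46 cells, and Trav4-4-dv10 had 17, 12, 15 and 9 from 26.

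The other 8 genes of this group lay between 35 and 41 UMIs, too close to rank. Trav12-2 had 13, 12, 11 and 5, Trav14-2 had 23, 9, 2 and 7, and Trav8n-2 had 27, 3, 2 and 8. Trav9-4 had 17, 5, 8 and 9 and Trav16n had 16, 6, 8 and 7. Every library held each of those genes. Trav7-5 had 15, 8, 8 and 6 and Trav5-4 had 10, 12, 4 and 10. Trav14d-3-dv8 had 18, 9, 0 and 8; its 0 of 203 Trav UMIs in the miR-146a knockout allows a share up to 1.80%, where the aged WT had 3.26%, and the intervals of these libraries overlap.

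By subgroup, genes numbered Trav14 held 12.5% of Trav UMIs, Trav13 10.8%, Trav7 10.5%, Trav9 9.83% and Trav6 9.75%. The Trav14 share was 15.5% for the young WT, 13.0% for the aged WT, 5.91% for the miR-146a knockout and 11.5% for the double knockout. These shares rest on 77, 36, 12 and 33 UMIs, and no interval was computed for them. The MAIT segment Trav1 had 8 UMIs in 5 T cells, 3 UMIs for the young WT, 4 for the aged WT, 1 for the miR-146a knockout and 0 for the double knockout.

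How evenly a family was used was summarised as the effective number of genes, the number of equally used genes that would give the same chance that 2 cells share a gene, over cells with exactly 1 gene of the family. For Trbv it was 6.75 ± 1.46 (SE over cells) for the young WT, 6.85 ± 1.58 for the aged WT, 5.83 ± 1.51 for the miR-146a knockout and 9.33 ± 2.16 for the double knockout, and 6.86 ± 0.810 over all. By type it was 7.87 ± 1.52 in Nai Cd4, 6.73 ± 1.32 in Mem Cd4, 8.87 ± 2.09 in Nai Cd8 and 4.23 ± 1.41 in Mem Cd8 cells. For Trav it was 42.4 ± 3.18, 45.1 ± 4.41, 36.1 ± 5.88 and 43.2 ± 4.69 by library. The ranges of 1 SE around the values of neighbouring libraries overlapped, though some of these values differed by more than either SE. No narrowing or widening of usage between libraries was thus detectable at this depth.

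A V gene was seen in only a minority of T cells. A Trav UMI was present in 11.5% of T cells of the young WT, 11.0% of the aged WT, 8.92% of the miR-146a knockout and 9.41% of the double knockout library. A Trbv UMI was present in 2.44%, 2.68%, 2.84% and 2.35%. In 12844 B cells, which should hold neither, the shares were 0.179% and 0.101%, at a median of 2098 UMIs per cell against 2399 in T cells. Thinned to 1000 UMIs per cell, the T cell shares were 5.25%, 5.59%, 4.77% and 4.93% for Trav and 0.994%, 1.27%, 1.14% and 1.11% for Trbv. Thinning left out 23, 15, 66 and 24 shallower cells in the same library order, and it changed the order of libraries in both families. The WT libraries exchanged places for Trav, and for Trbv the miR-146a knockout came below the aged WT and the young WT below the double knockout.

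Of the 858 T cells with a Trav UMI, 609 (71.0%) had 1, 159 had 2, 53 had 3, 26 had 4 and 11 had 5 or more. A second UMI was thus present in 29.0% of Trav cells but in 0.952% of Trbv cells, where no gene gave more than 1 UMI in a cell. The highest value was 9 UMIs of Trav8n-2, in a young WT Mem Cd8 cell of 4359 UMIs. Counts of a Trav gene are therefore sums over few, unequal cells, which the UMI intervals do not cover.

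Only 31 cells showed UMIs of 2 different Trav genes, in 30 different pairs, and in 2 of these cells both genes were of the same subgroup (Trav13d-1 with Trav13n-1, and Trav4-3 with Trav4-4-dv10). Only 2 cells showed 2 Trbv genes, Trbv3 with Trbv13-2 in the young WT and Trbv12-2 with Trbv16 in the aged WT. Both chains were seen in 28 cells, and 27 of them had exactly 1 gene of each. These 27 cells held 26 different pairs; Trav3-3 with Trbv12-2, the most counted gene of each family, was the pair seen in more than 1 cell, with 1 cell in each of 2 libraries. No expanded pair was detectable among so few cells.

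The summed level of each family is given in CPM, the family's UMIs scaled to an equal total of UMIs in every set of cells. In T cells Trav reached 62.1 CPM for the young WT, 60.5 for the aged WT, 51.4 for the miR-146a knockout and 56.9 for the double knockout library. Trbv reached 9.01, 10.5, 10.9 and 9.71 CPM. The constant genes were counted far more often: there were 8.27, 7.36, 5.09 and 7.48 Trav UMIs per 100 UMIs of Trac, and 0.264, 0.304, 0.276 and 0.260 Trbv UMIs per 100 UMIs of Trbc1 and Trbc2. The miR-146a knockout was the lowest on both Trav scales. The interval of its CPM overlapped those of the aged libraries (44.6 to 59.0 against 53.6 to 68.1 in the aged WT). That overlap does not extend to the count per Trac UMI, for which no interval was computed. Trac itself stood at 1010 CPM in the miR-146a knockout against 822 in the aged WT.

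**Figure D4:**
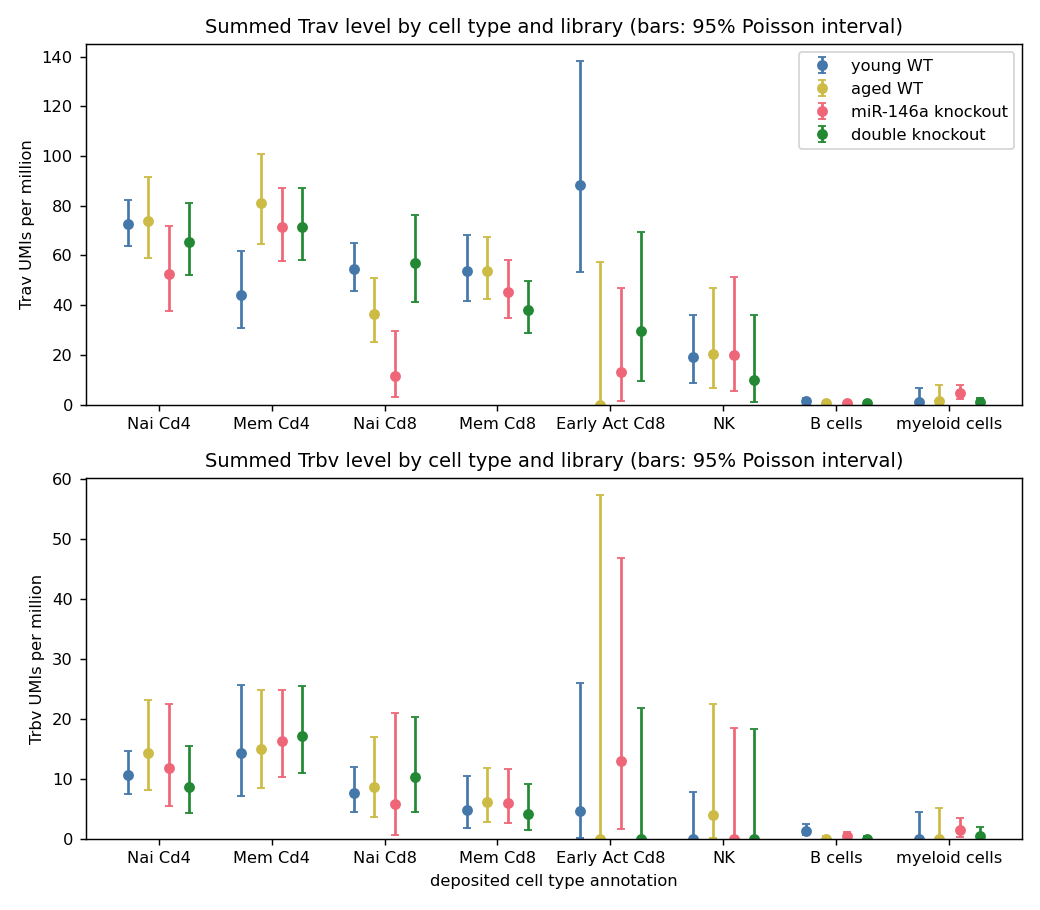
Summed Trav (top) and Trbv (bottom) UMIs in CPM (vertical) by deposited cell type (horizontal) and library (colour), with 95% Poisson intervals. Trbv in Mem Cd8 cells lies between 4.16 and 6.22 and in Mem Cd4 cells between 14.3 and 17.2, and B and myeloid cells lie near 0.

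By type, Trbv stood at 14.3, 15.1, 16.4 and 17.2 CPM in Mem Cd4 cells and at 4.82, 6.22, 5.94 and 4.16 in Mem Cd8 cells of the same libraries. Mem Cd8 was the lower in 4 of 4 libraries as CPM, as a percent of cells and per constant-gene UMI. The Mem Cd8 cells also held more RNA of other receptor and cell classes. Their 4 γδ constant genes summed to 201 to 330 CPM against 2.86 to 44.2 in Mem Cd4, and 4 NK markers summed to 163 to 503 against 7.44 to 15.6, with Ncr1 too low to be tested. By edgeR all 4 γδ genes and the 3 tested NK markers were higher. The part of such cells in the Trbv difference was not tested. In Nai Cd4 cells Trbv stood at 10.6, 14.2, 11.9 and 8.67 CPM and in Nai Cd8 cells at 7.58, 8.59, 5.80 and 10.3.

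For Trav the order of the memory types depended on the scale: Mem Cd8 was the higher in 1 of 4 libraries as CPM, in 2 as a percent of cells and in 4 per Trac UMI. As CPM, Trav stood at 44.2, 81.3, 71.4 and 71.6 in Mem Cd4 and at 53.8, 53.9, 45.3 and 38.2 in Mem Cd8. Nai Cd4 cells held 72.7, 73.8, 52.7 and 65.4 CPM and Nai Cd8 cells 54.8, 36.5, 11.6 and 56.9. The 11.6 CPM of the miR-146a knockout comes from 4 UMIs in 93 cells (3.16 to 29.7 CPM). In those 93 cells the memory markers Cd44, S100a4 and Ccl5 summed to 8811 CPM, against 145 to 1308 in Nai Cd8 of the other libraries. Ccl5 can carry such a sum. In all T cells of the miR-146a knockout it stood at 13258 CPM, S100a4 at 434 and Cd44 at 83.1. Over the libraries, edgeR called Ccl5 higher in Nai Cd8 than in Nai Cd4 cells, but Cd44 and S100a4 lower. The sum therefore does not show that each of these markers went against the label.

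The other receptor genes gave firmer comparisons between types, since they were counted far more deeply. They were tested with edgeR's quasi-likelihood test on UMI sums per type and library, with the library as a block and Benjamini-Hochberg adjustment over 8358 genes. The constant genes Trac, Trbc1 and Trbc2 were all 3 lower in Mem Cd8 than in Mem Cd4 cells, Trac by a log2 difference of -0.75 (SE 0.098), Trbc1 of -0.43 and Trbc2 of -0.31 (adjusted p = 0.0119 for Trbc2, edgeR). The CD3 signalling chains Cd247, Cd3g and Cd3e, 3 of 4, were lower in that comparison too, as was Zap70, the kinase recruited to them, 1 of 5 proximal signalling genes. Called genes were 28.0% of all genes tested there.

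In Mem Cd4 against Nai Cd4 cells (19.2% of all genes called) Trac was higher by 0.45 log2 (SE 0.097), 1 of 3 constant genes, with 3 of 4 CD3 chains higher. Zap70 and Fyn were higher. In Nai Cd8 against Nai Cd4 cells (10.3% called) Trac was lower by a log2 difference of -0.36 (adjusted p = 0.0215, edgeR), Cd247 was lower and Cd3d higher. In Mem Cd8 against Nai Cd8 cells (9.72% called) 0 of 3 constant genes and 0 of 4 CD3 chains were called at an adjusted p of 0.05, and of the 5 signalling genes Fyn was higher. The labels held on their markers: Ccr7 and Lef1 were lower in both memory types than in the matching Nai type, and Cd8a and Cd8b1 were higher in both Cd8 types than in the matching Cd4 type. The recombination genes Rag1, Rag2, Dntt and Ptcra summed to 2.53 to 7.76 CPM in T cells, too few to test.

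The filter on low counts of that fit removed all 94 detected V genes, so they were tested without it, over 16008 genes. In Nai Cd8 against Nai Cd4 cells edgeR called 0 of the 94, where it called 6.59% of all genes. At an unadjusted p under 0.05 it gave 2, and DESeq2 called 0, with 1 unadjusted. In Mem Cd8 against Mem Cd4 cells 1 V gene was higher, where 8.50% of all genes were, and 5 were lower, where 8.90% were. In Mem Cd4 against Nai Cd4 cells 1 was lower (5.60% of all genes). In Mem Cd8 against Nai Cd8 cells 1 was higher (3.99%) and 1 lower (2.66%). In each of these the V genes were called no more often than genes in general. DESeq2 called 0 of them in any comparison, with 6, 3 and 3 at an unadjusted p under 0.05 in the last 3. Its own filter gave no adjusted p to 4656 to 6518 of the 16008 genes by comparison. Such genes, Trav11 among them in both comparisons where edgeR called it, could not be called by DESeq2. The calls below are thus calls of edgeR alone.

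Trav3-3 was lower in both memory types. It had 15, 8, 7 and 12 UMIs in Nai Cd4 cells of the young WT, aged WT, miR-146a knockout and double knockout libraries, against 3, 0, 7 and 3 in Mem Cd4 cells. As CPM, Nai Cd4 was the higher in 4 of 4 libraries, with 4.43, 7.12, 9.22 and 9.46 against 3.90, 0, 5.21 and 2.15. The groups of libraries overlap at 4.43 and 5.21 CPM. The log2 difference was -1.50 (SE 0.51, adjusted p = 0.0275, edgeR), and it was called in 2 of 4 fits that leave out a library. It was lost without the aged WT (adjusted p = 0.286, edgeR) and without the double knockout (0.333). In Nai Cd8 cells Trav3-3 had 13, 3, 0 and 1 UMIs, against 0, 1, 2 and 1 in Mem Cd8. That log2 difference was -2.36 (SE 0.75, adjusted p = 0.0293, edgeR) with 3 of 4 libraries in its direction, and it was called only without the miR-146a knockout among the fits that leave out a library. The adjusted p of edgeR was 0.847 without the young WT, 0.118 without the aged WT and 0.0711 without the double knockout. Trav3-3 made up 9.29% of the Trav UMIs of Nai Cd4 cells, 4.18% in Mem Cd4, 8.02% in Nai Cd8 and 1.53% in Mem Cd8.

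Trav11, the invariant NKT segment, was counted in Mem Cd8 cells of every library, with 6, 6, 1 and 1 UMIs from 5, 6, 1 and 1 cells. Mem Cd4 and Nai Cd8 cells had 0 in all 4 libraries. Against the limit of 3 UMIs over the group, it was at least 3.84-fold higher than in Mem Cd4 and at least 3.77-fold higher than in Nai Cd8 cells. Its adjusted p was 0.0324 against Mem Cd4 and 0.0475 against Nai Cd8 by edgeR, and neither call was made in any of the fits that leave out 1 library (0.0623 to 0.216 and 0.0666 to 0.519). Nai Cd4 cells had 1 UMI, in the young WT. No UMI was in NK, B or myeloid cells.

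The 13 Mem Cd8 cells with Trav11 did not show the coreceptor of their label. Cd8a and Cd8b1 were each at 0 of 13 cells (exact upper limit 24.7%), against 53.9% and 62.1% of the other 1756 Mem Cd8 cells, at median depths of 2394 and 2850 UMIs. Klrb1c, which encodes NK1.1, was in 5 of 13 (38.5%, 13.9% to 68.4%) against 8.03%. Zbtb16, which encodes PLZF, the factor that defines innate-like T cells, was in 1 of 13 against 0.626%. Cd4 was in 2 of 13 against 5.81%, the δ constant gene Trdc in 0 against 5.98%, and Trac in 13 of 13 against 77.1%. These shares were looked at after the type comparison and have no test. The pseudogene copy Trav11n had 6 UMIs in 4 T cells, 2 of them Mem Cd8, and Trav11d had 0.

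**Figure D5:**
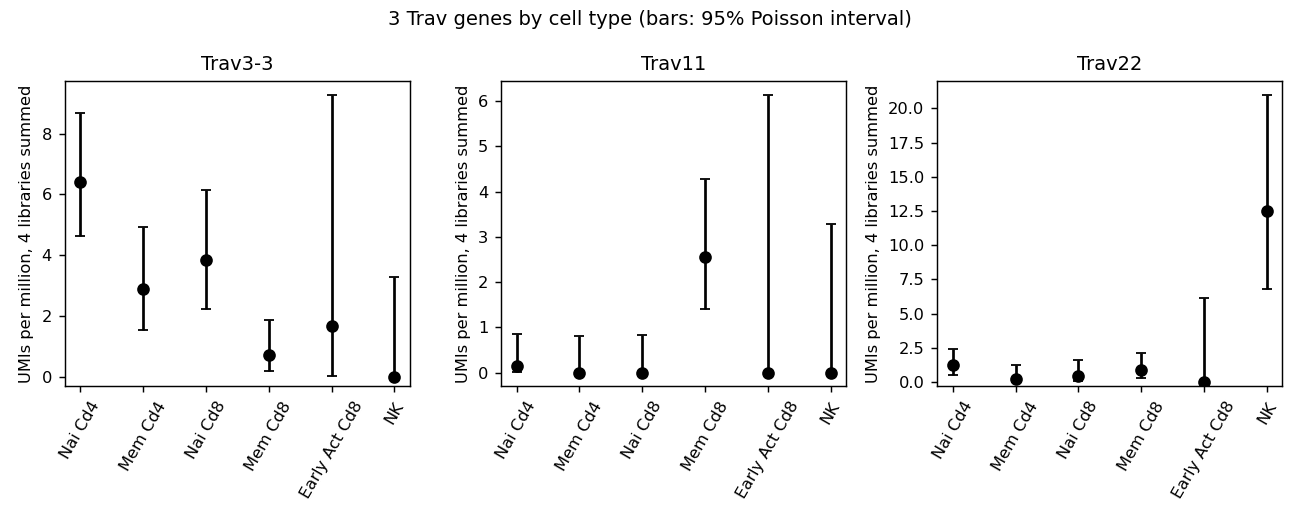
Levels of Trav3-3, Trav11 and Trav22 (vertical, CPM over the 4 libraries summed, with 95% Poisson intervals covering counting error only) by cell type (horizontal). Trav3-3 stands at 6.43 in Nai Cd4 and 0.730 in Mem Cd8 cells, Trav11 at 2.55 in Mem Cd8 cells, and Trav22 at 12.5 in NK cells against 0.743 in all T cells.

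The other 5 calls were of genes lower in Mem Cd8 than in Mem Cd4 cells. Trav4-4-dv10 had 2, 1, 0 and 0 UMIs in Mem Cd8 against 0, 6, 15 and 3 in Mem Cd4, so the young WT library went the other way. Its 15 UMIs in the miR-146a knockout came from 5 cells, 1 of which held 7. The log2 difference was -2.76 (SE 0.79, adjusted p = 0.00425, edgeR), and without the miR-146a knockout library the adjusted p was 0.401. Trav5-4 had 1, 0, 0 and 0 UMIs against 0, 9, 2 and 5, a log2 difference of -3.44 (SE 1.12, adjusted p = 0.0148, edgeR). That call was lost without the aged WT (0.416) and without the double knockout (0.129).

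Trav9-4 had 2, 0, 0 and 0 UMIs in Mem Cd8 against 4, 1, 7 and 6 in Mem Cd4 cells, lower in 4 of 4 libraries. Its log2 difference was -2.92 (SE 0.96, adjusted p = 0.0163, edgeR), lost without the miR-146a knockout (0.162) and without the double knockout (0.159). Trav14n-3 had 0, 0, 1 and 0 against 3, 5, 1 and 4 UMIs, a log2 difference of -3.28 (SE 1.20, adjusted p = 0.0384, edgeR). It was lost without the young WT (0.171), without the aged WT (0.293) and without the double knockout (0.191). Trav9-1 had 0 in every library against 0, 4, 2 and 3, at least 3.65-fold lower (adjusted p = 0.0392, edgeR), and lost without any 1 of the libraries (0.0501 to 0.289). None of the 5 genes had more than 24 UMIs in Mem Cd4 cells, and the most cells with the gene behind any call named here were 9 and 27, for Trav3-3 in Mem Cd4 and Nai Cd4 cells. No Trbv gene was called in any comparison of types.

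Between libraries a gene's share of its family was compared by its ratio and a 95% conditional binomial interval, with an interval wholly beyond 1.5-fold in either direction as the mark of size, for genes with at least 20 UMIs over both libraries. For Trbv12-2 in T cells the ratio of shares was 0.938 (0.457 to 1.86) in aged over young WT, 1.19 (0.551 to 2.59) in the miR-146a knockout over aged WT, 0.713 (0.316 to 1.58) in the double over the miR-146a knockout and 0.849 (0.372 to 1.91) in the double knockout over aged WT. All 4 intervals include 1, and they also include a change of 1.5-fold in at least 1 direction.

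Among the α genes, Trav8n-2 was past that mark in aged against young WT. It made up 27 of 496 Trav UMIs (5.44%) in the young WT and 3 of 276 (1.09%) in the aged WT, a ratio of 0.200 (0.0388 to 0.649). These UMIs came from 7 and 2 cells, and the top young WT cell held 9 of them. By cells with Trav8n-2 as their one Trav gene, 6 against 2, the ratio was 0.578 (0.0571 to 3.23), and the difference was no longer past the mark. As CPM in T cells, 1 of 16 V genes deep enough was past the mark in this comparison, again Trav8n-2, where 5.48% of all genes were. For the miR-146a knockout against aged WT it was 0 of 5 V genes (3.14% of all genes), for the double against the miR-146a knockout 0 of 5 (1.00%), and for the double knockout against aged WT 0 of 6 (1.18%). These comparisons share libraries, and so few V genes were deep enough that the counts say little of the rest.

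Outside T cells Trbv was rare, and Trav was less rare in NK cells than in B or myeloid cells. Trav summed to 17.8 CPM in 445 NK cells (10.9 to 27.6), against 0.862 in B and 2.33 in myeloid cells, and Trbv to 0.892, 0.400 and 0.734. In the 550 barcodes annotated as T/B dbl Trav stood at 26.7 CPM and Trbv at 3.53, and in barcodes with no annotation at 9.28 and 1.90. Of the 20 NK Trav UMIs 14 were of Trav22, a pseudogene near the end of the locus, each in its own cell and in every library (5, 4, 4 and 1). Trav22 thus stood at 12.5 CPM (6.83 to 21.0) in NK cells and at 0.743 in T cells, where it had 9, 4, 1 and 2 UMIs. It was chosen for description after these values were seen, and no test was made. Trav13n-3 had 3 UMIs in NK cells, and Trav10, Trav13-1, Trav15-1-dv6-1 and Trbv12-2 had 1 each.

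In the NK cells with Trav22 the α constant gene was about as rare as in the rest. Trac was in 1 of 14 (7.14%) against 6.03% of the other 431 NK cells, Klrb1c in 13 of 14 against 91.9%, and Trdc in 5 of 14 (35.7%, 12.8% to 64.9%) against 18.3%. Their median depth was 2631 UMIs against 2198. Of the receptor segments counted beside the V genes, 6 Trdv genes had 53 UMIs in T cells and 7 γ variable genes had 137. The 60 Traj, 14 Trbj and 2 Trbd genes had 0 UMIs in all barcodes.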

How the data were processed

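Gene by barcode matrices of UMI counts and a cell annotation were deposited by the authors for 4 libraries. Cell Ranger 3.0.0 and mm10 are named per the submitters' processing notes, and the sources used here do not give the filters behind the annotation. The deposited counts are raw whole numbers. The deposited cell types were used as given, and barcodes with no annotation and those called T/B dbl were left out of T cells. No doublet caller was run. The members and lists were chosen with earlier results of these data known.

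UMI counts were summed per library and T cell type (16 sums, Early Act Cd8 left out for under 50 cells in some libraries) and tested with edgeR 4.0.16 (R 4.3.3), TMM scaling, glmQLFit and glmQLFTest, library as a block, Benjamini-Hochberg adjustment over all genes and an adjusted p of 0.05. Each group is 1 library, so p-values set a difference between types against its variation over these 4 libraries, which differ in age and genotype. They do not measure the spread between animals of a group. filterByExpr kept 8358 genes and no V gene, so the planned fit without filter on 16008 genes was used for V genes. DESeq2 1.42.0, no TMM, separate fits, no block, shares of family UMIs and leaving out each library were alternatives. Some combinations with the unfiltered fit, and T cells pooled over types, were added after seeing the data. Scripts were tested on simulated data. Shares have 95% Clopper-Pearson intervals, levels Poisson intervals and ratios conditional binomial intervals (scipy 1.17.1). The limit for a count of 0 is 3 UMIs. Uniqueness was computed over 90-base windows of GENCODE M21 transcripts. UMI counts were not divided by transcript length.

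Genes named were Trbv genes with at least 20 UMIs in T cells, the 12 Trav genes with most UMIs, Trav11, Trav11d and Trav1, every gene called between types, and genes whose ratio between libraries had an interval wholly beyond 1.5-fold with UMIs in at least 10 cells. No gene met the last rule. Trav8n-2 was also among the 12, and other names were added after their values were seen. Some items are not reported here.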

Additional observations from a re-analysis of the deposited data

Results flagged for a closer look

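V gene UMIs also occurred outside the annotated cells used above. Barcodes with no annotation, 3434 in all, held 122 Trav UMIs (33 for the young WT, 31 for the aged WT, 39 for the miR-146a knockout and 19 for the double knockout library). They were in 2.30% of these barcodes, against 0.179% of B cells. The same barcodes held 25 Trbv UMIs (3, 9, 9 and 4), in 0.641% of barcodes against 0.101% of B cells. NK cells held 20 Trav UMIs in 4.04% of 445 cells, and Trav22 gave 14 of them.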

How the results depend on the processing

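With the filter on low counts, 0 V genes were tested and so 0 called. Without it, Mem Cd8 against Mem Cd4 gave 1 higher and 5 lower, Mem Cd4 against Nai Cd4 gave 1 lower, and Mem Cd8 against Nai Cd8 gave 1 higher and 1 lower. As shares of family UMIs without filter, these were 2 higher and 3 lower, 1 lower, and 0 higher and 1 lower. Leaving out a library without filter gave 0 to 1 higher and 2 to 3 lower, 0 to 1 lower, and 0 higher with 0 to 1 lower. Of 9 gene calls, 4 held without the young WT, 2 without the aged WT, 4 without the miR-146a knockout and 1 without the double knockout library, 6 held as shares, and 0 of 7 held with DESeq2 (adjusted p 0.0620 to 0.287). DESeq2 gave no adjusted p to the calls of Trav11. None of these alternatives reversed a direction. The cause of the lost calls was not tested. Trav8n-2 in aged against young WT was the 1 share past 1.5-fold, and this count was 0 by cells, 0 without the 5 cells with most family UMIs and 0 at 2-fold. Thinned to 1000 UMIs, the share of T cells with Trav was 5.25%, 5.59%, 4.77% and 4.93% and with Trbv 0.994%, 1.27%, 1.14% and 1.11%. Types were paired within libraries, with the library as the block. No paired analysis between groups was possible because each group has 1 library. With 212 Trbv UMIs in all, 2 of the Trbv genes had 20 or more, so small differences in β usage are beyond this depth.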
